A study of Mus musculus with 6 samples.

Results

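The insulin-like growth factor (IGF) family was examined in mouse mandibular condylar cartilage through 10 genes, Igf1, Igf2, Igf1r, Igf2r and Igfbp2 to Igfbp7, taken by symbol from the 24346 genes of the deposited tables. All 10 were present and all 10 passed the filter on low values. The condylar cartilage is the growth cartilage at the jaw end of the temporomandibular joint, and it was dissected under a microscope and profiled by RNA sequencing. Of 6 libraries, 3 came from mutant mice in which Ihh, the gene for the signalling protein Indian hedgehog, was deleted in neural crest cells of the head and face, and 3 came from control mice labelled fl/fl, the usual notation for a floxed gene. The series description says that mutant condyles were checked for Ihh, Cre and Tomato expression. The sources used here do not give the Cre driver, the age and sex of the mice, whether controls carried Cre or Tomato, or whether each library is a different animal. The p-values therefore measure only the spread among these libraries, part of which may be technical.

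IGF1 and IGF2 are secreted growth factors that act through the receptor tyrosine kinase IGF1R, which signals through insulin receptor substrates to the PI3K-AKT and MAPK pathways. IGF2R binds IGF2 and carries it to lysosomes without signalling in the same way, and Igf2 and Igf2r are imprinted in opposite directions in mice. The IGF-binding proteins (IGFBPs) hold the ligands outside the cell and can limit or prolong their action until proteases cut them. In growth cartilage, IGF signalling promotes the proliferation and enlargement of chondrocytes.

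Levels are given in FPKM, fragments scaled to transcript length and library depth, so that levels of different genes can be set side by side. Ihh itself had 2.18, 2.33 and 2.66 FPKM in mutants 1, 2 and 3, against 3.73, 2.51 and 3.74 FPKM in controls 1, 2 and 3, with overlapping groups (limma adjusted p = 0.724). The deleted segment of Ihh is not named in the labels. The 1102 olfactory receptor genes, a family mostly unexpressed beyond the nose, serve here as a gauge of background. Among them, Ihh stood at the 68.1st to 70.1st percentiles in mutants and the 70.4th to 81.9th in controls. It was thus under their 90th percentile in every library. The gauge takes no account of transcript length, so these percentiles do not show whether Ihh was near background. The hedgehog target Gli1 had 0.807, 0.168 and 0.573 FPKM in mutants, against 9.47, 7.10 and 9.53 FPKM in controls, and it fell (log2 fold change -2.69 ± 0.32, SE; limma adjusted p = 0.0152). Xist, expressed from the inactive X chromosome, had 0.577 to 0.984 FPKM in mutants, 29.5 and 29.2 FPKM in controls 1 and 2 and 0.608 FPKM in control 3, and the Y-linked gene Eif2s3y had 38.4 to 47.4 FPKM in mutants, 0.89 and 0 FPKM in controls 1 and 2 and 42.1 FPKM in control 3, so sex and group were not balanced. Beside cartilage markers such as Col2a1, a skeletal muscle list of 10 markers summed to 11719 to 21646 FPKM in mutants and 2675 to 6152 FPKM in controls. Of those 10 markers 6 rose, where 0.775% of all genes tested did. Of 10 chondrocyte markers 3 fell, where 0.465% of all genes tested did, and Matn1 was at 0 in at least 1 library. Every mutant lay below every control in 6 of the 10 and above in 1, Comp, where 9.4% and 9.77% of all genes tested did. The sum of the 10 was 180 to 222 FPKM in mutants and 340 to 405 FPKM in controls. In tissue libraries such as these, fewer cells of a type and less RNA per cell cannot be told apart.

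No IGF family gene passed the test over all genes. Of the 18715 genes tested, 232 (1.24%) had a limma adjusted p below 0.05, and 0 of the 10 family genes were among them, with adjusted p from 0.0796 to 0.980. At an unadjusted p below 0.05 there were 3 of the 10, where all genes tested gave 14.1%. The same 3 genes, the binding protein genes Igfbp2, Igfbp3 and Igfbp7, had every mutant value above every control value, which 9.77% of all genes tested did. The ligands and receptors had means in mutants that were 0.920 to 1.02 times those in controls. The median log2 fold change of the 10 genes was 0.19, against 0.00085 over all genes tested.

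**Figure D1:**
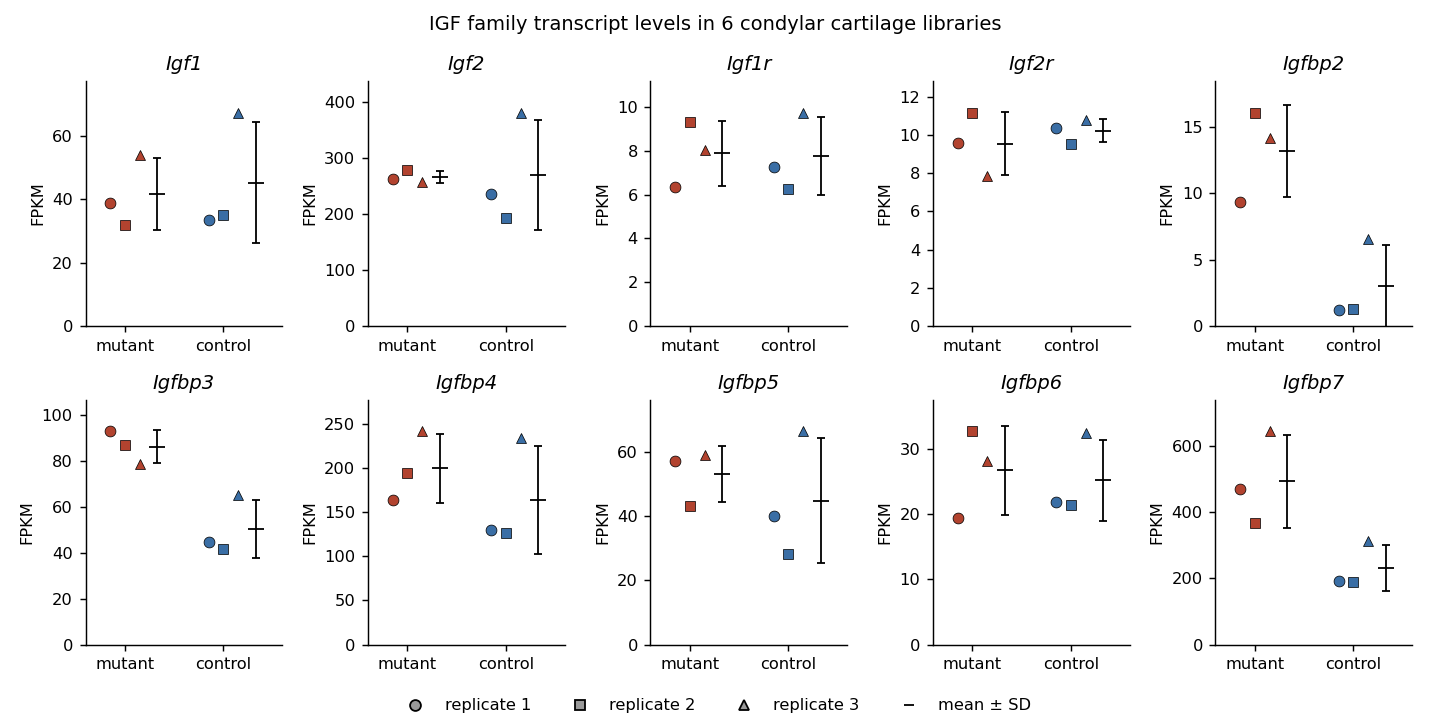
FPKM of the 10 IGF family genes in each library, with mutants to the left of controls, symbols for replicates 1 to 3, and bars for the mean and SD of 3 libraries. Igfbp2, Igfbp3 and Igfbp7 separate the groups, and control 3 is the highest control in all 10 panels.

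Control 3 differed from the other controls in the level of the family. It had the highest value of the 3 controls in 10 of 10 genes, where 37.9% of all genes tested did, and the highest value of all 6 libraries in 4 of them, Igf1, Igf2, Igf1r and Igfbp5. On the log2(FPKM + 1) scale, control 3 exceeded the mean of controls 1 and 2 by a median of 0.77 over the 10 genes and of 0.050 over all genes tested. Control 3 is also the control with low Xist, and the part of sex in these values was not tested apart from the library itself.

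The ligand gene Igf2 was the second most abundant family transcript, with a mean of 268 FPKM over the 6 libraries. It had 263, 279 and 258 FPKM in mutants 1, 2 and 3, against 236, 194 and 381 FPKM in controls 1, 2 and 3. The mutant values lay close together and inside the range of the controls (266 ± 10.8 FPKM in mutants, 270 ± 98.3 FPKM in controls; SD, n = 3 each). The log2 fold change of Igf2 was 0.04 ± 0.25 (SE; limma adjusted p = 0.970), with a 95% interval from -0.52 to 0.60. Igf2 is found at chr7:142650766-142666816, minus strand (GENCODE M21, GRCm38, which is mm10). There, 62.8% of its exonic bases are shared with the gene model Gm49394 on the same strand, and 1.71% with the antisense gene Igf2os. Igf2os had 0.76 to 1.53 FPKM in mutants and 0.457 to 0.766 FPKM in controls. Reads of the bases shared with Gm49394 cannot be assigned to either gene, since both lie on the same strand. These libraries do not keep the strand, so the same holds for the bases shared with Igf2os.

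Igf1, the ligand that growth hormone induces in many tissues, had 38.8, 32.1 and 54.1 FPKM in mutants, against 33.5, 35.0 and 67.3 FPKM in controls. The highest value was that of control 3, the other controls lay among the mutants, and the groups overlapped. Igf1 is found at chr10:87858265-87937042, plus strand. Its log2 fold change was -0.08 ± 0.30 (SE; limma adjusted p = 0.952, 95% interval from -0.76 to 0.61). It was -0.68 with Xist as a covariate (limma adjusted p = 0.521), -0.71 with controls 1 and 2 left out and 0.24 without control 3 (limma adjusted p = 0.759). The Xist fit and the fit without controls 1 and 2 both rest mainly on control 3, since Xist was high in controls 1 and 2 alone. Igf2 exceeded Igf1 in every library, by 6.78, 8.69 and 4.76 times in mutants and by 7.03, 5.53 and 5.66 times in controls. The summed ligand level was 302, 311 and 312 FPKM in mutants, against 269, 229 and 448 FPKM in controls.

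The receptor genes were the least abundant of the family, together with Igfbp2. Igf1r, the signalling receptor, had 6.34, 9.30 and 8.02 FPKM in mutants, against 7.27, 6.25 and 9.72 FPKM in controls. Igf2r, the clearance receptor, had 9.59, 11.2 and 7.87 FPKM in mutants, against 10.4, 9.56 and 10.8 FPKM in controls. Neither receptor separated the groups. Igf1r is found at chr7:67952827-68233668, plus strand, and Igf2r at chr17:12682406-12769664, minus strand. The log2 fold change was 0.03 ± 0.26 for Igf1r (SE; limma adjusted p = 0.980) and -0.10 ± 0.22 for Igf2r (SE; limma adjusted p = 0.898). The 95% intervals ran from -0.55 to 0.61 for Igf1r and from -0.60 to 0.39 for Igf2r. The olfactory receptor genes had a 90th percentile of 6.49 to 8.58 FPKM over the 6 libraries. Igf1r exceeded that percentile in 2 of 6 libraries and Igf2r in 5 of 6. This gauge takes no account of transcript length, and 1 FPKM stands for more fragments in a long transcript than in a short one. The longest transcripts have 11409 bases for Igf1r and 8887 for Igf2r, so the percentiles do not show that either was near background. The antisense gene Airn, which overlaps the Igf2r locus but shares none of its annotated exonic bases, had 31.0 to 38.6 FPKM in mutants and 24.5 to 52.5 FPKM in controls.

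Among the binding proteins, 250 bases upstream of the annotated start are shown for the 3 genes whose groups did not overlap, so that their promoters can be compared. The sequences are from RefSeq on GRCm38.p6, read 5′ to 3′ toward the gene, with every GC box (GGGCGG or its reverse complement CCGCCC) in capitals.
Igfbp2 (chr1:72824230-72824479, plus strand): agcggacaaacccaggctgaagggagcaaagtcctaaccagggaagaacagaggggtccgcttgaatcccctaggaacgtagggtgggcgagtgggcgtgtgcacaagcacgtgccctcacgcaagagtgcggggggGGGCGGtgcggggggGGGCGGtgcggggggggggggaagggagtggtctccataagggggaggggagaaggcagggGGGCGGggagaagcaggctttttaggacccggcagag
Igfbp3 (chr11:7213924-7214173, minus strand): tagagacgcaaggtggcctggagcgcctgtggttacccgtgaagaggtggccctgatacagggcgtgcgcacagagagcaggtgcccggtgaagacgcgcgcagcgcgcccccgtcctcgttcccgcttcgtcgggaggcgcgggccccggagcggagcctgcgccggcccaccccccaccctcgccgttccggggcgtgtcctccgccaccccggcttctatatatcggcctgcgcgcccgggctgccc
Igfbp7 (chr5:77408046-77408295, minus strand): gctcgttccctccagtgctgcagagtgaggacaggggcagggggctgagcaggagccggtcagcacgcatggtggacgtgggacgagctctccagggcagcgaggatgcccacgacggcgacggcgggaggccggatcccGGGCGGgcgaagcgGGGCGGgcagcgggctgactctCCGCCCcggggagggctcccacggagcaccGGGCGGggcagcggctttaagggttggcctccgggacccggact
GC boxes numbered 3 upstream of Igfbp2, 0 upstream of Igfbp3 and 4 upstream of Igfbp7, and 32.7% of 32851 RefSeq promoters of that length held at least 1. The GC content was 67.2% for Igfbp2, 73.2% for Igfbp3 and 74.0% for Igfbp7, against a median of 52.4% over those promoters. The letters TATAAA, on either strand, were in none of the 3, and 12.4% of the promoters held them. Only these exact letters were searched, and the Igfbp3 window holds the similar stretch tatatat near its end. The GLI motif GACCACCCA, on either strand, was in none of the 14 windows listed for the 10 family genes, and 0.225% of the promoters held it. Its core CCACCC, which lies within that motif, was in 7 of the 14 windows, those of Igfbp2 and Igfbp3 above among them, where 28.1% of the promoters held it. The E-box CACGTG was in 2 of the 14, the Igfbp2 window above among them, where 6.02% of the promoters held it. Igfbp2 has another listed start, whose window is not shown.

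Igfbp7, which encodes a binding protein with low affinity for IGFs that is abundant in blood vessels, was the most abundant transcript of the family, with a mean of 362 FPKM over the 6 libraries. It had 469, 365 and 643 FPKM in mutants 1, 2 and 3, against 193, 188 and 311 FPKM in controls 1, 2 and 3. Every mutant lay above every control, with control 3 nearest to the mutants. The mean was 492 ± 140 FPKM in mutants and 231 ± 69.7 FPKM in controls (SD, n = 3 each), so that the mutant mean was 2.13 times the control mean. The log2 fold change was 1.09 ± 0.27 (SE), which did not pass the test over all genes (limma adjusted p = 0.0962, and 0.0575 to 0.784 over the alternatives). It was 0.65 with Xist as a covariate and 0.62 with controls 1 and 2 left out. Both values rest mainly on control 3, since Xist was high in controls 1 and 2 alone, and they are not separate checks. Igfbp7 is found at chr5:77349240-77408041, minus strand, and 7.03% of its exonic bases overlap those of Polr2b on the opposite strand. Polr2b had 15.9 to 16.8 FPKM in mutants and 8.16 to 16.1 FPKM in controls.

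Endothelial markers were higher in the same libraries as Igfbp7. All 8 genes of the list, among them Plvap, Egfl7 and Pecam1, had every mutant value above every control value, where 9.77% of all genes tested did. Of the 8, 2 rose, Pecam1 and Cldn5 (limma adjusted p = 0.0294 and 0.0453), where 0.775% of all genes tested did. Their summed level was 259, 286 and 281 FPKM in mutants, against 92.2, 111 and 157 FPKM in controls, and none of the 8 was at 0 in any library. Within each library, Igfbp7 was 1.81, 1.28 and 2.29 times that sum in mutants, against 2.09, 1.69 and 1.99 times in controls. The groups overlapped in this ratio, whereas they did not in Igfbp7 itself. The ratio was chosen after its values were seen, and the part of endothelial cells in the Igfbp7 level was not tested.

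**Figure D2:**
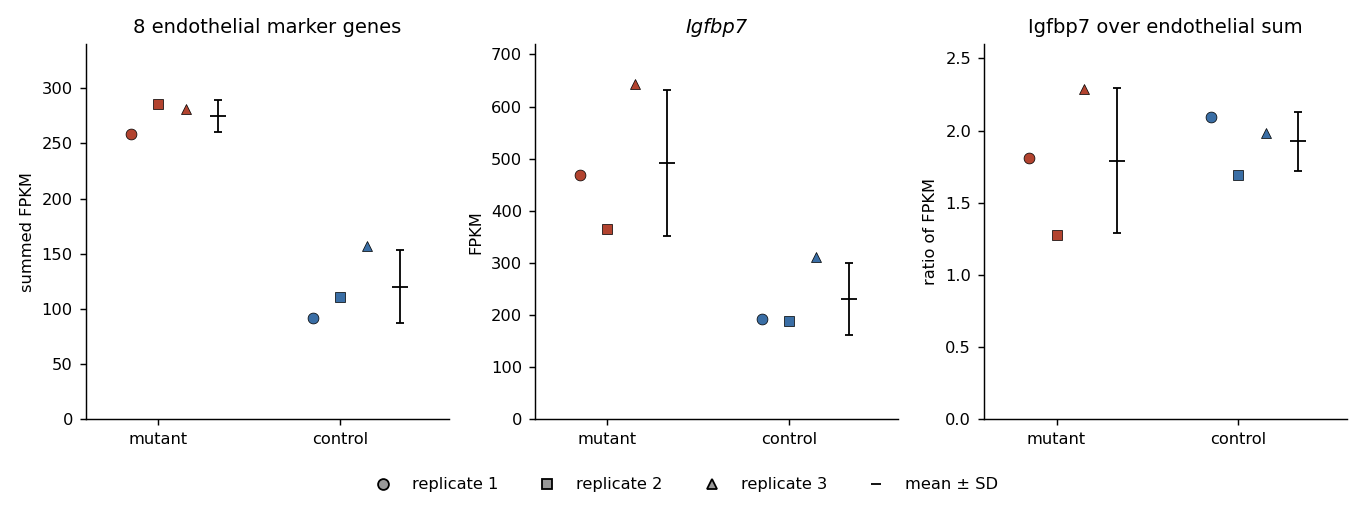
Summed FPKM of 8 endothelial marker genes, FPKM of Igfbp7 and the ratio of Igfbp7 to that sum, with mutants to the left of controls and bars for the mean and SD of 3 libraries. The first 2 quantities separate the groups, and the ratio, from 1.28 to 2.29 in mutants and from 1.69 to 2.09 in controls, does not.

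Igfbp3 encodes the main carrier of IGFs in blood plasma, where it forms a complex with the product of Igfals. It had 93.0, 87.1 and 78.9 FPKM in mutants, against 44.5, 41.7 and 65.0 FPKM in controls. Every mutant again lay above every control, and the mutant values were close to each other (86.3 ± 7.08 FPKM in mutants, 50.4 ± 12.7 FPKM in controls; SD, n = 3 each). The log2 fold change was 0.79 ± 0.21 (SE; limma adjusted p = 0.119, and 0.0578 to 0.967 over the alternatives). It was 0.42 with Xist as a covariate, 0.40 with controls 1 and 2 left out, and 0.19 ± 0.47 (SE) with the averaged muscle markers as a covariate. Those averages separated the groups, at 8.04 to 9.23 in mutants and 6.22 to 7.12 in controls on the log2(FPKM + 1) scale. The muscle fit can therefore hardly tell muscle from group, and the part of muscle was not tested. Relative to the endothelial sum, Igfbp3 was 0.359, 0.305 and 0.281 in mutants, against 0.483, 0.376 and 0.415 in controls, so that in this ratio every mutant lay below every control. Igfbp3 is found at chr11:7206086-7213923, minus strand. Its neighbour Igfbp1, 3539 bases away, had 1.06, 0.441 and 1.01 FPKM in mutants and 0, 0.534 and 0 FPKM in controls and was not tested.

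Igfbp2, which encodes a binding protein prominent in fetal tissues and in early fat cells, had the widest range of the family, with the highest library 12.9 times the lowest. It had 9.34, 16.0 and 14.2 FPKM in mutants, against 1.24, 1.25 and 6.54 FPKM in controls. Controls 1 and 2 were nearly equal, and control 3 stood between them and the mutants. The mean was 13.2 ± 3.46 FPKM in mutants and 3.01 ± 3.06 FPKM in controls (SD, n = 3 each), and the log2 fold change was 2.04 ± 0.47 (SE; limma adjusted p = 0.0796). Without control 3 the log2 fold change was 2.63 (limma adjusted p = 0.0219). That fit sets mutants with low Xist against controls with high Xist, so group and sex cannot be told apart in it. With controls 1 and 2 left out the log2 fold change was 0.88. It was 0.90 with Xist and 0.92 ± 1.13 (SE) with the skeletal muscle mean as a covariate, a mean that itself separated the groups. The limma adjusted p was 0.0219 to 0.935 over the alternatives. Igfbp2 is found at chr1:72824503-72852474, plus strand. At a minimum of 5 FPKM in place of 1 FPKM, which leaves fewer genes tested, Igfbp2 also passed (limma adjusted p = 0.0459). It met that filter through the mutants, since controls 1 and 2 had 1.24 and 1.25 FPKM. Its entry to that smaller test thus depended on the group where it was high.

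Where whole fragments were counted, a gene's FPKM in a library is a whole multiple of what 1 fragment is worth there. The smallest whole numbers that gave all 6 values of Igfbp2 within 0.05 of a fragment were 15, 31 and 24 in mutants and 2, 2 and 14 in controls, and the true numbers may be multiples of these. Taking these numbers as they stand, the ratio of mutant to control after scaling was 3.97, with an exact 95% interval from 2.34 to 7.09 that covers counting error only. Controls 1 and 2 stood at the 59.8th and 61.1st percentiles of the olfactory receptor genes, and control 3 at the 90.2nd. The mutants stood at the 90.7th to 98.4th. Beside Igfbp2, the adipocyte list of 6 markers, of which Fabp4 is the most abundant, summed to 311 to 683 FPKM in mutants and 72.6 to 323 FPKM in controls. Of these 6, 0 passed the test, 1 had every mutant above every control (Fabp4) and 1 every mutant below (Lep, at 4.11 to 5.70 FPKM in mutants and 5.999 to 8.96 FPKM in controls), where 9.77% and 9.4% of all genes tested did. Adipoq had 16.3, 3.96 and 3.22 FPKM in mutants against 0.679, 1.37 and 10.2 FPKM in controls. The adipocyte genes Cfd and Retn were at 0 in some libraries, and the part of fat cells in the Igfbp2 level was not tested.

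Igfbp4, Igfbp5 and Igfbp6 did not separate the groups. Igfbp4, whose product holds back IGFs until the protease PAPP-A cuts it, had 164, 195 and 242 FPKM in mutants, against 130, 127 and 235 FPKM in controls. Igfbp5, whose product binds matrix and is made by many skeletal cells, had 57.1, 43.2 and 58.9 FPKM in mutants, against 39.9, 28.3 and 66.4 FPKM in controls. In both genes controls 1 and 2 were the 2 lowest libraries, and control 3 lay among or above the mutants. Igfbp6, whose product prefers IGF2 to IGF1, had 19.3, 32.7 and 28.1 FPKM in mutants, against 21.9, 21.4 and 32.4 FPKM in controls. The log2 fold changes were 0.33 ± 0.27 for Igfbp4, 0.31 ± 0.30 for Igfbp5 and 0.07 ± 0.26 for Igfbp6 (SE; limma adjusted p = 0.693, 0.746 and 0.943). With controls 1 and 2 left out they were -0.25, -0.33 and -0.30, and without control 3 they were 0.62, 0.63 and 0.26. Without control 2 that of Igfbp5 was 0.030. Igfbp4 is found at chr11:99041244-99054392, plus strand, and Igfbp6 at chr15:102144362-102149511, plus strand. Igfbp5, at chr1:72857932-72874884 on the minus strand, is 5457 bases from Igfbp2. Igfbp2 was the second least abundant family gene by its mean of 8.10 FPKM, and Igfbp5, at 49.0 FPKM, was the fifth most abundant.

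**Figure D3:**
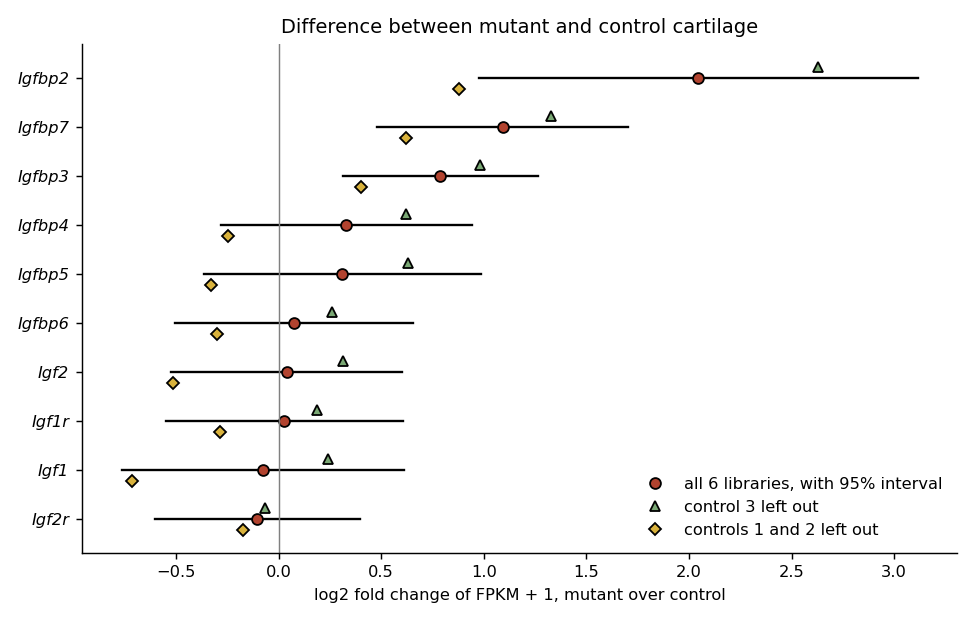
Log2 fold change of FPKM + 1, mutant over control, for the 10 genes, as circles with 95% intervals from limma for all 6 libraries, triangles without control 3 and diamonds without controls 1 and 2. Igfbp2, Igfbp7 and Igfbp3 stay above 0 in all 3 settings, as they must where every mutant lies above every control. The diamonds of the other 7 genes lie below 0.

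By mean level over the 6 libraries the order was Igfbp7, Igf2, Igfbp4, Igfbp3, Igfbp5, Igf1, Igfbp6, Igf2r, Igfbp2 and Igf1r. Neighbours in this order overlapped in range, except that Igfbp4 lay wholly above Igfbp3 and Igfbp6 wholly above Igf2r. Igfbp7 exceeded Igf2 in 3 of 6 libraries, the 3 mutants.

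The summed binding proteins were set against the ligands within each library, a comparison that does not depend on how libraries were scaled to each other. Summed over the 6 genes, they had 812, 739 and 1064 FPKM in mutants, against 430, 408 and 716 FPKM in controls. The sum was 2.69, 2.38 and 3.41 times that of Igf1 and Igf2 in mutants, against 1.60, 1.78 and 1.60 times in controls. The groups did not overlap in this ratio, and control 3, which stood apart in level, was level with control 1 here. Without Igfbp7, the ratio was 1.14, 1.20 and 1.35 in mutants and 0.881, 0.960 and 0.903 in controls, again without overlap. These ratios were chosen after their values were seen, are given as a description with no test, and count the IGFBPs as transcripts rather than as proteins.

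The make-up of the binding protein pool also differed between the libraries of the groups. Igfbp7 made up 57.8%, 49.4% and 60.4% of the summed IGFBP FPKM in mutants, against 44.9%, 46.1% and 43.5% in controls. Igfbp4 made up 20.2%, 26.3% and 22.7% in mutants, against 30.1%, 31.2% and 32.8% in controls. In both shares the groups did not overlap, but the shares are tied to each other, since all shares of a library sum to the whole. The 2 genes jointly made up 78.0%, 75.8% and 83.1% in mutants, against 74.99%, 77.3% and 76.2% in controls, with overlap, and the FPKM of Igfbp4 itself was not lower in mutants. Igfbp3 made up 7.41% to 11.8% in mutants and 9.08% to 10.4% in controls. Igfbp2 was the smallest share, at 1.15% to 2.17% in mutants and 0.289% to 0.913% in controls.

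**Figure D4:**
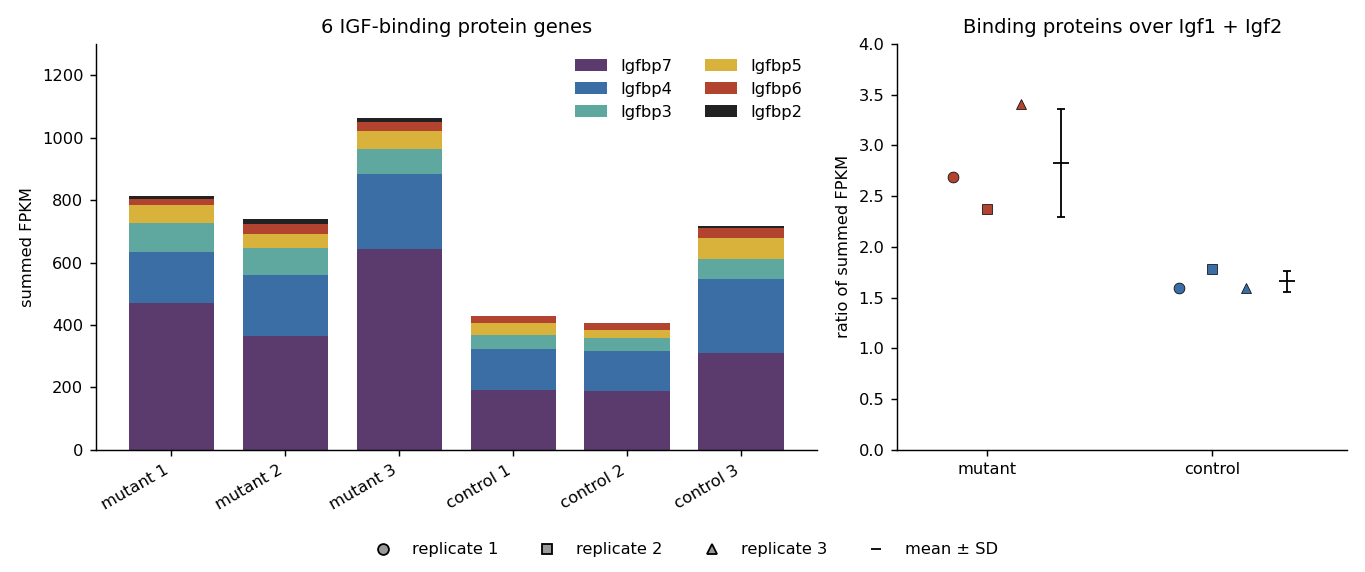
Left, FPKM of the 6 binding protein genes stacked for each library, with mutants to the left of controls. Right, the ratio of that sum to the summed FPKM of Igf1 and Igf2, with bars for the mean and SD of 3 libraries, from 2.38 to 3.41 in mutants and from 1.60 to 1.78 in controls.

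Of 74 other genes of the pathway, sorted into 8 lists, 70 were tested and 1 fell over all genes tested, Stc2, where 0.465% of all genes tested fell. No gene of the lists rose, where 0.775% of all genes tested did. Every mutant lay above every control in 11 of the 70 and below in 8, where 9.77% and 9.4% of all genes tested did. The median log2 fold change of the 70 was 0.11.

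The IGFBP proteases and their inhibitors held the called gene, Stc2, which met the filter of 1 FPKM in 3 libraries only through the controls. Its entry to the test thus depended on the group where it was high. Stc2, whose product stanniocalcin-2 inhibits PAPP-A, had 0, 0.365 and 0 FPKM in mutants, against 3.95, 2.21 and 3.96 FPKM in controls (log2 fold change -1.95 ± 0.38, SE; limma adjusted p = 0.0496). The smallest whole numbers of fragments that gave these values were 0, 1 and 0 in mutants and 9, 5 and 12 in controls, a scaled ratio of 0.039 with an exact 95% interval from 0.00096 to 0.239 for counting error only. The library size implied by the Stc2 numbers was smaller than that implied by those of Igfbp2, Igfbp6 and Ihh, so the true numbers for Stc2 may be multiples of those given. Stc2 stood at or under the 82.2nd percentile of the olfactory receptor genes in every library, and its call held in 1 alternative, quantile normalization (limma adjusted p = 0.0324). It did not pass with median scaling (limma adjusted p = 0.0508), a pseudocount of 0.1, no filter, the replicate block, Xist or the skeletal muscle mean as a covariate, or any 1 mutant left out, and it fell below the filter and was not tested at a minimum of 5 FPKM or with any control left out. Pappa, which encodes PAPP-A, the protease that cuts IGFBP4, had 3.87, 3.80 and 5.98 FPKM in mutants, against 1.03, 2.07 and 2.13 FPKM in controls (limma adjusted p = 0.195). Stc1, a relative of Stc2, had 17.9, 18.7 and 22.8 FPKM in mutants, against 12.2, 8.91 and 12.7 FPKM in controls (limma adjusted p = 0.143). Both separated the groups with every mutant above every control. The metalloproteinase gene Adam9 had 9.78 to 11.3 FPKM in mutants and 11.4 to 15.6 FPKM in controls (limma adjusted p = 0.683).

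Of 12 genes whose products carry an IGFBP domain outside the IGFBP family proper, 0 passed the test, where 1.24% of all genes tested did. The smallest p was that of Kazald1, a secreted matrix gene. Kazald1 had 43.4, 70.7 and 78.3 FPKM in mutants, against 43.3, 33.5 and 29.4 FPKM in controls (limma adjusted p = 0.185), with mutant 1 level with control 1. The CCN family gene Wisp2 had 20.0, 28.1 and 12.2 FPKM in mutants, against 10.7, 14.3 and 4.002 FPKM in controls, and Cyr61 had 38.7 to 112 FPKM in mutants and 28.1 to 45.0 FPKM in controls. The secreted serine protease gene Htra1 had 96.7, 139 and 128 FPKM in mutants, against 142, 170 and 176 FPKM in controls (limma adjusted p = 0.372). Of 6 tested genes listed beside the ligands and receptors 0 passed, where 1.24% of all genes tested did. Among them Insr, the insulin receptor gene, had 10.2 to 12.7 FPKM in mutants and 8.29 to 10.1 FPKM in controls. Ins1, an insulin gene, had 5.72 to 16.3 FPKM in mutants and 10.3 to 21.6 FPKM in controls, and Igflr1, the gene of an IGF-like family receptor, had 6.07 to 14.2 FPKM in mutants and 7.88 to 14.96 FPKM in controls. M6pr, the smaller mannose 6-phosphate receptor gene, had 30.1 to 31.8 FPKM in mutants and 29.0 to 40.7 FPKM in controls.

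Genes downstream of the receptor gave 0 calls in 9 substrates and adaptors, 19 PI3K-AKT-mTOR genes and 8 MAPK genes. Of all genes tested 1.24% were called, so 0 calls in lists this short says little about them. The kinase gene Akt2, which is prominent in insulin-responsive tissues such as muscle and fat, had 38.0, 42.5 and 35.3 FPKM in mutants, against 21.3, 13.2 and 22.1 FPKM in controls (log2 fold change 1.02 ± 0.23, SE; limma adjusted p = 0.0755). At a minimum of 5 FPKM, Akt2 passed and was the 1 pathway gene called. Every mutant lay above every control in Akt2, as they did in the sum of the skeletal muscle list, whose part in Akt2 was not tested. Akt1 had 49.9 to 66.0 FPKM in mutants and 26.0 to 61.5 FPKM in controls. Irs1, the docking protein of the IGF and insulin receptors, had 11.6, 17.8 and 9.43 FPKM in mutants, against 17.9, 19.7 and 21.2 FPKM in controls (limma adjusted p = 0.325). Grb10, an imprinted gene whose product restrains these receptors, had 52.6, 73.6 and 57.6 FPKM in mutants, against 78.0, 79.9 and 94.1 FPKM in controls (limma adjusted p = 0.328). The adaptor and phosphatase genes Sos1 and Ptpn11 overlapped between the groups, at 4.70 to 5.76 and 11.5 to 18.2 FPKM in mutants and 3.91 to 4.74 and 8.0 to 12.02 FPKM in controls. Tsc1, whose product restrains mTOR complex 1, had 4.57 to 7.06 FPKM in mutants and 3.61 to 4.21 FPKM in controls. Rps6kb1, the gene of the S6 kinase that this complex activates, had 15.01 to 19.8 FPKM in mutants and 20.2 to 25.5 FPKM in controls. The groups did not overlap in Tsc1 or Rps6kb1, and neither passed the test (limma adjusted p = 0.618 and 0.635). Pdpk1, whose product activates AKT, had 10.2 to 16.9 FPKM in mutants and 8.88 to 10.7 FPKM in controls. The MAPK gene Mapk3 had 29.4 to 37.6 FPKM in mutants and 19.3 to 28.7 FPKM in controls, without overlap (limma adjusted p = 0.398). The kinase gene Map2k1 overlapped between the groups, at 22.7 to 27.1 FPKM in mutants and 14.1 to 26.2 FPKM in controls.

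Of 6 growth hormone axis genes 0 passed the test, where 1.24% of all genes tested did, and all 6 log2 fold changes lay between 0.11 and 0.44. Socs2, a feedback gene induced by growth hormone, had 55.3, 45.6 and 54.5 FPKM in mutants, against 44.4, 36.4 and 45.1 FPKM in controls (limma adjusted p = 0.561). The receptor gene Ghr had 18.7 to 25.6 FPKM in mutants and 14.6 to 30.2 FPKM in controls. Its signalling partners Jak2 and Stat5b had 6.26 to 8.60 and 5.11 to 10.8 FPKM in mutants, against 5.15 to 7.57 and 6.43 to 7.37 FPKM in controls, and the feedback gene Cish had 1.01 to 12.8 FPKM in mutants and 1.79 to 5.70 FPKM in controls. All 3 overlapped between the groups. Among the 3 genes for Igf2 mRNA-binding proteins, Igf2bp2 had 7.36, 8.002 and 6.97 FPKM in mutants, against 6.22, 4.55 and 3.82 FPKM in controls (limma adjusted p = 0.388). Igf2bp1 and Igf2bp3 overlapped between the groups at 3.41 to 5.71 FPKM.

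**Figure D5:**
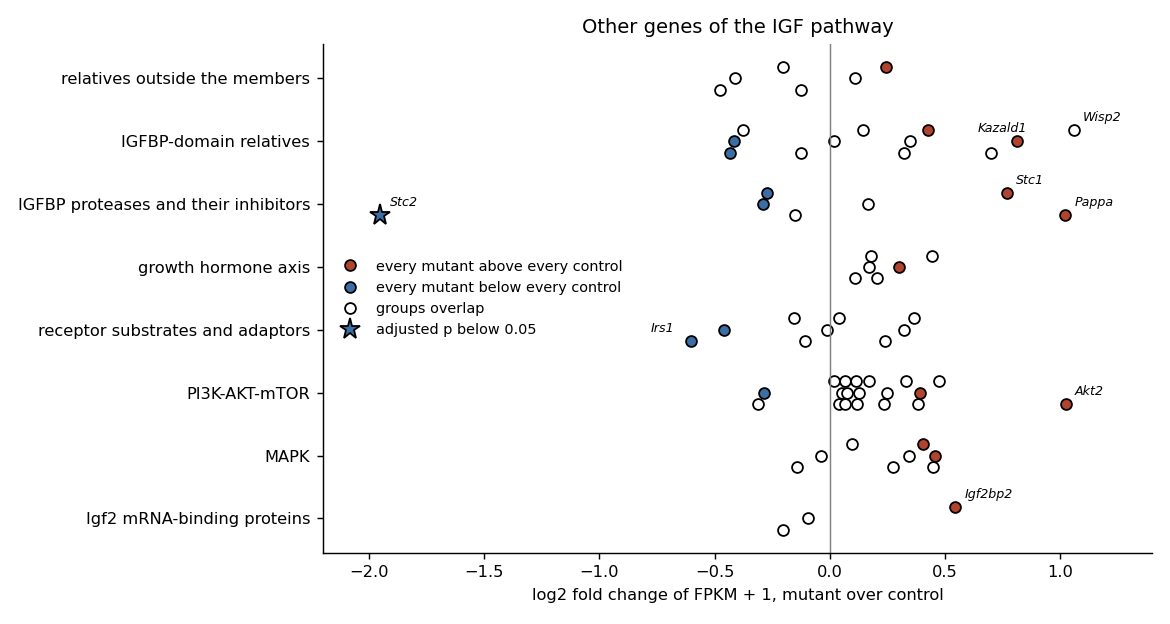
Log2 fold change of FPKM + 1, mutant over control, for the 70 tested pathway genes by list, 1 point per gene, filled where the groups do not overlap. The star marks Stc2, the gene with a limma adjusted p below 0.05, at -1.95.

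Gene profiles over the 6 libraries were compared with those of Igfbp2 and Igfbp7, the 2 family genes with the smallest p. Likeness was the root-mean-square distance between values of log2(FPKM + 1), each gene centred on its own mean, over 11237 genes with a mean of at least 5 FPKM. Nearest to Igfbp7 were Rhoj at 0.13, Slc35g2 at 0.14 and Lrrc75a at 0.15 log2 units, against a median distance of 0.71. Nearest to Igfbp2 were Sdpr at 0.28, Macrod1 at 0.29 and Gpd1 at 0.32 log2 units, against a median of 1.23. Rhoj had 47.0, 41.5 and 58.6 FPKM in mutants, against 20.1, 16.3 and 28.7 FPKM in controls, with mutant 3 and control 3 highest in their groups as in Igfbp7. Sdpr had 32.6, 39.5 and 35.7 FPKM in mutants, against 8.06, 6.64 and 19.6 FPKM in controls, with control 3 between the groups as in Igfbp2.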

How the data were processed

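RNA of condylar cartilage from 3 mutant and 3 control (fl/fl) samples was sequenced after SMART-Seq HT cDNA synthesis and Nextera library preparation, per the labels' protocols. The deposited tables hold 1 value per gene, taken as FPKM because the values are not whole, their sums differ between libraries (581072 to 738395) and Cufflinks is among the tools. Their headers name no unit. TopHat2 2.0.13, Bowtie2 2.2.3, SAMtools 0.1.19, Cufflinks 2.2.1 and mm10 are listed in the submitters' processing notes, with the gene annotation not given in the sources used here.

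Genes reaching 1 FPKM in 3 or more libraries were tested on log2(FPKM + 1), a scale that understates changes of low genes, with limma 3.58.1 in R 4.3.3 (limma-trend, robust moderation, group as the only term, two-sided). P-values were Benjamini-Hochberg adjusted over all genes tested, at a threshold of 0.05. The procedure was tested on simulated data. The depth is not recorded. The spacing of low values gave library totals of 0.994 to 1.33 relative to control 1, and whole numbers up to 70 fragments were searched. The precision of low genes is that of these fragments.

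The family members, the lists and the alternatives were chosen with earlier results of these data known. Named were the 10 members, the called genes and up to 4 genes of smallest p of each pathway list, the 3 genes most alike to each of 2 members, checks of the libraries and up to 3 abundant genes of a marker list. Other genes were named after their values were seen. Some genes that this rule names are not reported here. Marker lists of 14 cell types or states were summarised.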

Additional observations from a re-analysis of the deposited data

How the results depend on the processing

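Igfbp2, Igfbp3 and Igfbp7 kept a positive log2 fold change in all 15 alternatives, from 0.88 to 2.63, 0.19 to 0.98 and 0.62 to 1.45. In these 3 genes every mutant lay above every control. Leaving libraries out or changing the pseudocount or the filter could therefore not turn their sign. The alternatives are not separate checks, and the Xist fit and the fit without controls 1 and 2 both rest mainly on control 3. The family's count of 0 calls became 1, Igfbp2, at a minimum of 5 FPKM and without control 3 (0 to 1 over the fits that left out 1 library). Without control 3, group and sex cannot be told apart, since controls 1 and 2 had high Xist and every mutant low Xist. The count of 1 pathway gene became 0 with median scaling, a pseudocount of 0.1, no filter, the replicate block, Xist or the skeletal muscle mean as a covariate, and controls 1 and 2 left out, and 0 to 0 when 1 library was left out. It stayed at 1 at a minimum of 5 FPKM, but with Akt2 called and Stc2 not tested. The 232 genes called became 411 after quantile normalization, 133 without a filter, 440 at 5 FPKM, 2 with the replicate block, 2 with Xist, 2 with the muscle mean, 5 with controls 1 and 2 left out, and 10 to 419 when 1 library was left out (18, 60 and 419 without mutants 1, 2 and 3; 12, 10 and 210 without controls 1, 2 and 3). Over all genes tested, same-numbered libraries did not deviate together (correlations of -0.016 to 0.0063). The osteoclast list sum had the same order of replicates in both groups. It was 1324, 2000 and 407 FPKM in mutants and 681, 1356 and 366 FPKM in controls. The chondrocyte list sum did not, at 180, 211 and 222 FPKM in mutants and 371, 340 and 405 FPKM in controls. The sources used here do not say whether libraries of a number were handled together.

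Directions near 0 turned. With Xist as a covariate, log2 fold changes were -0.49 for Igf2, -0.29 for Igf1r, -0.24 for Igfbp4, -0.29 for Igfbp5 and -0.31 for Igfbp6. With controls 1 and 2 left out and the lone control assumed to vary as the mutants do, they were -0.52, -0.29, -0.25, -0.33 and -0.30 for the same genes. Igf1 was -0.68 in the first of these fits and -0.71 in the second. With the muscle mean they were 0.11 for Igf1, -0.75 for Igf2, -0.48 for Igf1r, -0.17 for Igfbp5 and -0.37 for Igfbp6. Leaving out 1 library gave -0.28 to 0.24 for Igf1, -0.17 to 0.32 for Igf2, -0.098 to 0.18 for Igf1r, -0.21 to 0.015 for Igf2r, 0.18 to 0.62 for Igfbp4, 0.030 to 0.63 for Igfbp5 and -0.083 to 0.28 for Igfbp6. None of these values passed the test, and the cause was not tested. The ratio of binding proteins to ligands, with alternatives chosen after the data were seen, differed by 0.876 to 1.39 (mutant minus control). Depth limits Igfbp2 in controls 1 and 2, at 2 fragments each by the smallest numbers that gave the values, and Stc2 in mutants.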

Other observations

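The remaining marker lists give the setting of the family's values. The pericyte and smooth muscle list of 7 genes summed to 324 to 446 FPKM in mutants and 235 to 287 FPKM in controls, with 1 gene called higher (Des) and 1 called lower (Acta2). Des, which skeletal muscle also expresses, carried the direction of that sum, and the other 6 genes summed to 128 to 157 FPKM in mutants and 194 to 220 FPKM in controls. The cell cycle list of 6 genes, of which 3 fell, summed to 78.2 to 118 FPKM in mutants and 181 to 217 FPKM in controls. Every mutant lay below every control in all 6, where 9.4% of all genes tested did. The hypertrophic chondrocyte list summed to 298 to 759 FPKM in mutants and 377 to 678 FPKM in controls, with 1 gene of 6 lower by the test. Of 10 fibroblast and perichondrium genes 2 fell, and the list summed to 5145 to 10299 FPKM in mutants and 6794 to 9286 FPKM in controls. Over all genes tested, 0.775% were called higher and 0.465% lower.

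Lists of blood and bone cells overlapped between the groups in their sums. They had 0 calls in either direction by limma at an adjusted p below 0.05, where 1.24% of all genes tested were called. The macrophage list summed to 115 to 250 FPKM in mutants and 107 to 125 FPKM in controls, the osteoclast list to 407 to 2000 FPKM in mutants and 366 to 1356 FPKM in controls, and the osteoblast and osteocyte list to 585 to 1745 FPKM in mutants and 414 to 1049 FPKM in controls. The erythroid list summed to 1207 to 2876 FPKM in mutants and 672 to 2794 FPKM in controls, and the neutrophil list to 38.1 to 563 FPKM in mutants and 28.1 to 92.5 FPKM in controls. The Schwann cell list summed to 8.71 to 17.8 FPKM in mutants and 6.25 to 10.7 FPKM in controls.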
